A study of Mus musculus with 2 samples.

Results

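The regions described here are the accessible sites of fetal thymic progenitors around 3 genes of myeloid and dendritic cell regulation, Spi1, Cebpa and Irf8. The assay was ATAC-seq, which reads out open DNA through the insertions of a transposase. A region belongs to a locus if the centre of its peak lies in a window drawn around the gene on the mm9 genome: chr2:90850000-91000000 for Spi1, chr7:35800000-36050000 for Cebpa and chr8:123150000-123400000 for Irf8. The windows held 66 of the 85764 peaks of the wild-type list and 53 of the 69896 peaks of the double-knockout list.

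There was 1 library per genotype, both from fetal thymus on the C57BL/6 strain. The cells were early thymic progenitors, sorted as CD4- CD8- Lin- CD44+ CD25- and ckit+. The first library is labelled wild type. The other library, called the double knockout here, came from E2Afl/flHEBfl/flIL7RCre animals, in which the E protein genes E2A and HEB are floxed and the Cre recombinase is driven by IL7R. Cre therefore acts only in cells in which that driver has been active, and the loss of E2A and HEB was not checked here. The double-knockout sort also used YFP, which the wild-type sort did not. Differences due to genotype and to this difference in the sort cannot be told apart. The sources used here give neither the age of the embryos nor the number of animals behind a library. The cell type was taken from the labels and was not checked against marker genes.

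Spi1 encodes PU.1, an ETS-family transcription factor needed for myeloid cells and B cells and present in the earliest thymic progenitors, where it is turned off as cells commit to the T lineage. An element upstream of Spi1 is known to control its level. Cebpa encodes C/EBP alpha, which drives granulocyte and monocyte development and is known to be controlled by an enhancer downstream of the gene. Irf8 encodes an interferon regulatory factor needed for monocytes and conventional dendritic cells, and several enhancers on both sides of the gene are known. The E proteins E2A and HEB belong to the basic helix-loop-helix factors, bind E-boxes (the letters CANNTG) and support lymphoid development.

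No gene annotation or genome sequence of mm9 was used here, so regions are given by coordinate and by their spacing. They are not assigned to a promoter, an exon, an intron or any of the known enhancers. Regions are numbered by position within each window. In the order of protein-coding genes of the RefSeq table (build GRCm38.p6), Spi1 lies between Slc39a13 and Mybpc3, Cebpa between Gm45095 (itself next to Cebpg) and Slc7a10, and Irf8 between Cox4i1 and Foxf1. A region of a window may therefore belong to a neighbouring gene.

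The RefSeq promoters of the members (build GRCm38.p6, plus strand for each) are shown because E2A and HEB bind E-boxes. The table matched 2 of the 3 genes, Cebpa with 1 start and Irf8 with 2, and did not match Spi1. The 250 bases before each start are printed 5′ to 3′, with every CANNTG in capitals. This pattern reads the same on both strands, and overlapping matches were counted.
Cebpa promoter 1: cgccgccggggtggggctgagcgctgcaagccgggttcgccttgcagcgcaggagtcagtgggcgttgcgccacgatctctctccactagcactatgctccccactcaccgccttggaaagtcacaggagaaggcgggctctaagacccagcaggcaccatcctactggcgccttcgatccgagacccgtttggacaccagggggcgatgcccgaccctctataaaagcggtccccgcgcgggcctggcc
Irf8 promoter 1: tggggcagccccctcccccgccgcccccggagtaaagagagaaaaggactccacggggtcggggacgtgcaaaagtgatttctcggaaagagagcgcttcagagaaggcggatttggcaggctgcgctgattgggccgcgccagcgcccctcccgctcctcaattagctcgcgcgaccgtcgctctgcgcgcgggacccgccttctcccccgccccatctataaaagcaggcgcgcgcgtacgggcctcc
Irf8 promoter 2: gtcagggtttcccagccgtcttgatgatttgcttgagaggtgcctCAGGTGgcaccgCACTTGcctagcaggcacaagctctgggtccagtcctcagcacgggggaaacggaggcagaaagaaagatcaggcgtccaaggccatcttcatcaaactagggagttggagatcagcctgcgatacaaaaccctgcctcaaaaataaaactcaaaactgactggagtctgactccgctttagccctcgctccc
Irf8 promoter 2 held 2 matches, CAGGTG and CACTTG, and the other two promoters held 0. Among all 32851 promoter stretches of this length in the table, 66.2% held at least 1 match. A match describes the letters and is not a binding site. The peaks carry mm9 coordinates and these sequences another build, so neither was placed on the other.

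The question was which of these sites were called in both genotypes and which in 1 alone. A region was called kept if its wild-type and double-knockout peaks overlapped by at least 1 bp, and otherwise wild-type-only or double-knockout-only. The 3 windows together held 76 regions, of which 43 were kept, 23 were wild-type-only and 10 were double-knockout-only. Of the wild-type peaks of the windows, 34.8% were wild-type-only (exact Clopper-Pearson 95% interval 23.5 to 47.6%), and over all wild-type peaks the share was 39.1%. Of the double-knockout peaks there, 18.9% were double-knockout-only (9.44 to 32%), against 25.3% over the whole list. Both intervals include the share of the whole list, so at this number of peaks no difference between the loci and the genome was detectable. The intervals cover counting error over peaks only. With 1 library per genotype no difference has a replicate check and no test between genotypes was possible.

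Numbers per locus were small. In the Spi1 window, 11 of 13 wild-type peaks were kept, with 2 wild-type-only regions and 2 double-knockout-only regions. The Cebpa window had 14 kept regions, while 12 were wild-type-only and 2 were found in the double knockout alone. For the Irf8 window these counts were 18, 9 and 6. Wild-type-only regions were thus 15.4% (1.92 to 45.4%) of the wild-type peaks at Spi1, 46.2% (26.6 to 66.6%) at Cebpa and 33.3% (16.5 to 54.0%) at Irf8. Every one of these intervals includes the 39.1% of the whole list and overlaps the other two, so the order of the 3 loci was not resolved by these counts. Double-knockout-only regions were 15.4% (1.92 to 45.4%), 12.5% (1.55 to 38.3%) and 25% (9.77 to 46.7%) of the double-knockout peaks in the same order, and these intervals include 25.3% as well.

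**Figure D1:**
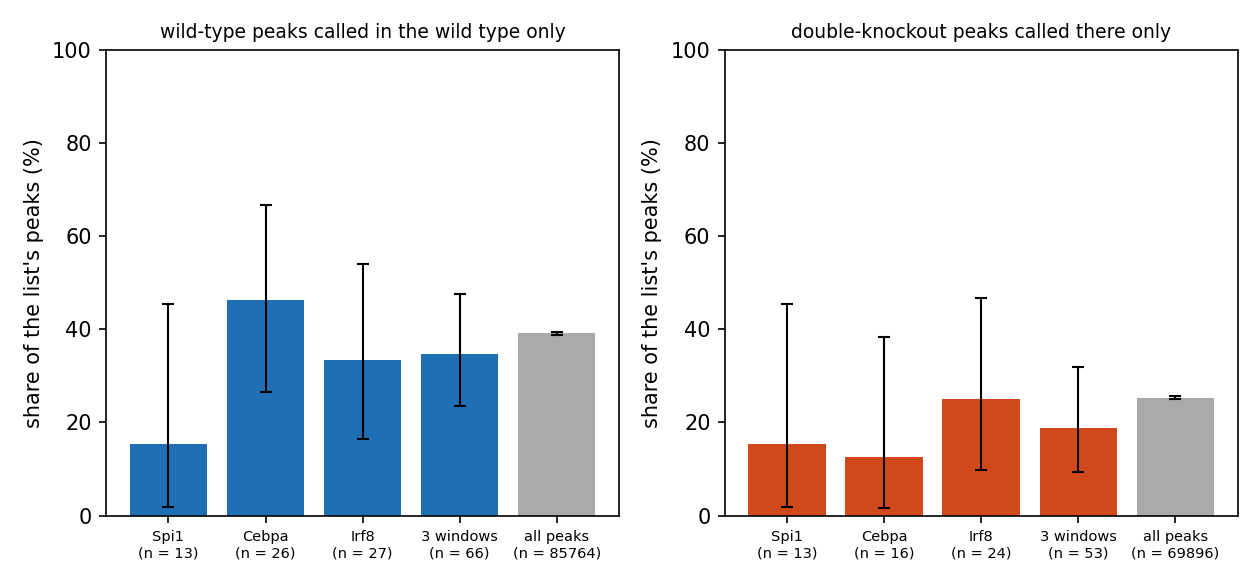
Share (%) of wild-type peaks called in the wild type only (left, blue) and of double-knockout peaks called there only (right, orange) in each window, in the 3 windows together and in the whole lists (grey). Bars start at 0, n is the number of peaks, and error bars are exact 95% binomial intervals; each interval of a window includes the share of its whole list.

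All 3 windows held more called sites per 100 kb than the genome as a whole. The windows were drawn around chosen genes, whereas the tiles used below cover whole chromosomes. The higher density is therefore not read as a trait of these loci. The Spi1 window held 13 peaks in each list, or 8.67 per 100 kb, against genome-wide values of 3.25 for the wild-type list and 2.65 for the double-knockout list. The Cebpa window held 26 wild-type peaks (10.4 per 100 kb) and 16 double-knockout peaks (6.4 per 100 kb). The Irf8 window held 27 and 24 peaks (10.8 and 9.6 per 100 kb). When the genome was tiled in windows of 250 kb, 2.92% of tiles held at least as many wild-type peaks as the Cebpa window, and 13.9% held at least as many double-knockout peaks. For the Irf8 window these shares were 2.30% and 2.88%. For the Spi1 window, among tiles of 150 kb, they were 9.88% and 6.62%. Cebpa thus stood less far up among the tiles in the double-knockout list than in the wild-type list, while Spi1 and Irf8 stood at similar places in both. These places have no interval and rest on the same peaks as the class counts, which did not resolve the order of the loci. A loss particular to Cebpa is therefore not read from them.

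Strength was read from the authors' score of each peak, which has no stated unit and is not comparable between the lists as it stands. It was turned into a percentile within its own list, 100 being the strongest peak. Because the lists differ in length, a kept region tends to have a lower percentile in the shorter list: over all 52206 kept regions the median difference, double knockout minus wild type, was -2.67 points. A percentile among the kept regions only has the same length in both lists, and its median difference was 0.55 points. Both are given where they bear on a region, the latter as the kept-rank difference. Of all kept regions, 64.4% were lower and 35.6% higher in the double knockout by percentile within the list, and 46.9% were lower and 53.1% higher by kept rank; counts of regions in 1 direction are read against these shares. These are values of a single pair of lists. In the double knockout, fewer cells with an open site and less accessibility per cell cannot be told apart.

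The maps of the windows show the highest bars at kept regions. Over the whole lists kept peaks also ranked higher. Their median percentile was 63.7 in the wild type, against 28.6 for wild-type-only peaks. In the double knockout it was 56.7, against 30.6 for double-knockout-only peaks. Regions found in 1 list reached at most percentile 52.1 at Spi1, 74.2 at Cebpa and 75.8 at Irf8. At Irf8 no region of either list reached the strongest 10%, while Spi1 held 3 such wild-type peaks and 2 such double-knockout peaks, and Cebpa 3 and 2.

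**Figure D2:**
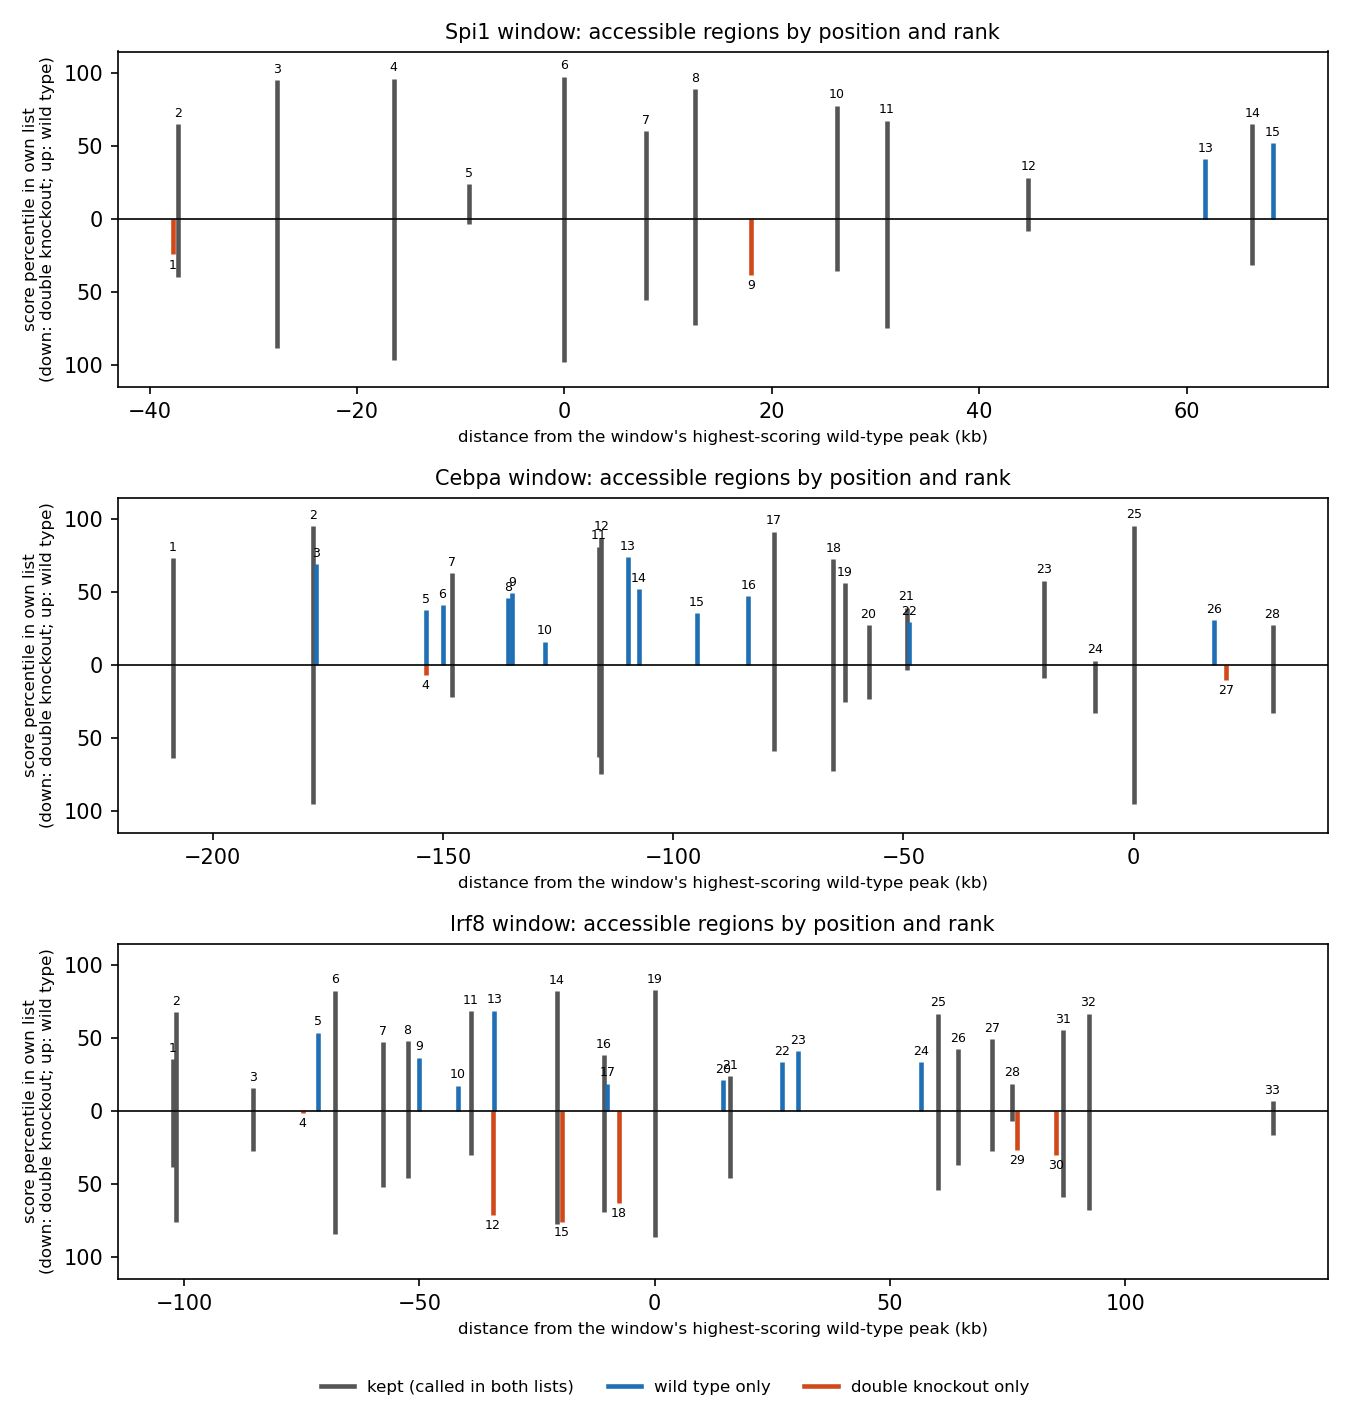
Regions of the Spi1, Cebpa and Irf8 windows by distance (kb) from the highest-scoring wild-type peak of the window. Bars give the score percentile within the own list, upward for the wild type and downward for the double knockout; grey regions were kept, blue were wild-type-only and orange double-knockout-only, and numbers are the region numbers of the text. The Cebpa window has 12 blue bars, 46.2% of its wild-type peaks against 39.1% in the whole list, and the longest orange bars are 12, 15 and 18 of the Irf8 window.

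At Spi1 regions 6 and 4 kept nearly the same rank, while region 3 and several weaker ones stood lower in the double knockout. Strong sites held their rank over the whole list too. Kept regions with a wild-type percentile among the kept regions around 97.5 had double-knockout quartiles of 95.7 and 98.7 on that scale. Around 52.5 the quartiles were 38.2 and 62.2. A steady rank at the top is therefore not read as a trait of Spi1. Region 6 (chr2:90910579-90910729) was the strongest of the window, with a score of 52.8 and percentile 97.8 in the wild type and a score of 64.2 and percentile 97.8 in the double knockout. Region 4 (chr2:90894095-90894245) had a score of 45.5 at percentile 96.5 in the wild type and 54.6 at percentile 96.3 in the double knockout. Region 3 (chr2:90882858-90883008) scored 40.4 (percentile 95.2) and 30.6 (percentile 88.2). These 3 lie within 27.9 kb, and regions 4 and 6 differed by under 1 point on either scale, while region 3 had a kept-rank difference of -7.36 points.

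The most negative percentile difference of the Spi1 window was that of region 10 (chr2:90936821-90936971). It had a score of 16 (percentile 77.9) in the wild type and 5.84 (percentile 35.2) in the double knockout. Its difference was -42.7 points and its kept-rank difference -39.6 points, and 4.26% of all kept regions had a kept-rank difference as low. Among kept regions of like wild-type rank it was less rare. Around 67.5 among the kept regions, the 10th percentile in the double knockout was 24.7, and region 10 stood above it at 28.1. Region 8 (chr2:90923143-90923293), 13.7 kb before region 10, was singled out after its values were seen. It scored 26.1 (percentile 89.1) and 14.9 (percentile 72.8), with a kept-rank difference of -15.9 points, and 15.1% of all kept regions had one as low. Region 11 (chr2:90941656-90941806), the next site after region 10, differed in the opposite direction, with scores of 11.8 (percentile 67.6) and 15.9 (percentile 74.6). Its difference of 6.94 points was the only positive one among the 11 kept regions of the window. By kept rank, 4 were higher and 7 lower. The 5 kept regions not yet named (2, 5, 7, 12 and 14) ranked between percentiles 24.0 and 65.4 in the wild type, and between 3.20 and 55.2 in the double knockout.

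Few Spi1 regions were found in 1 list. The wild-type-only regions were region 15 (chr2:90978853-90979003), with a score of 8.32 at percentile 52.1, and region 13 (chr2:90972366-90972516), with 6.68 at percentile 41.3. Both lie at the far end of the window, beside the kept region 14. Double-knockout-only were region 9 (chr2:90928570-90928720), with a score of 6.16 at percentile 37.9, and region 1 (chr2:90872813-90872963), with 4.67 at percentile 24.0. Region 9 lies between regions 8 and 10, with 5276 bp to the nearest wild-type peak. Region 1 lies 321 bp from a wild-type peak.

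At Cebpa the top pair of regions kept nearly the same rank, and the sites between them were in part kept and in part wild-type-only. Over the whole list, kept regions with a wild-type percentile among the kept regions around 92.5 had double-knockout quartiles of 89.3 and 94.2. The steady rank of the top pair is therefore not read as a trait of Cebpa either. Region 25 (chr7:36019718-36019868) scored 42.3 (percentile 95.7) in the wild type and 47.8 (percentile 94.7) in the double knockout. Region 2 (chr7:35841549-35841699) scored 41.2 (percentile 95.4) and 48.6 (percentile 94.9). Region 17 (chr7:35941577-35941727), the next in wild-type rank, did not keep its rank. It scored 30.6 (percentile 91.6) in the wild type and 9.87 (percentile 58.9) in the double knockout. Its kept-rank difference was -34.8 points, and 5.43% of all kept regions had one as low.

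Cebpa region 17 is the last site of a stretch whose ends were chosen after the values were seen, from region 5 to region 17 (chr7:35866155-35941727, 75.6 kb). It starts just after the double-knockout-only region 4, 133 bp away, so that it holds no double-knockout-only region by that choice. Of its 13 regions 9 were wild-type-only, against 39.1% of all wild-type peaks. The 4 kept ones, regions 7, 11, 12 and 17, had lower values in the double knockout on both scales, against 64.4% (within the list) and 46.9% (by kept rank) of all kept regions, and with ends picked this way nothing is read from these counts. Regions 11 and 12 are a close pair (chr7:35903536-35903686 and chr7:35904129-35904279), the latter 37.4 kb before region 17. Region 11 scored 18.1 (percentile 81.2) and 10.8 (percentile 62.6), and region 12 scored 23.9 (percentile 87.5) and 15.9 (percentile 74.6). Their kept-rank differences of -16.0 and -11.5 points were matched or passed by 15.0% and 19.6% of all kept regions, so that either alone is ordinary. Region 7 (chr7:35871684-35871834) scored 10.6 and 4.46, with a kept-rank difference of -33.6 points.

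The strongest wild-type-only region of the Cebpa window was region 13 (chr7:35909883-35910033), with a score of 14.2 at percentile 74.2. It opens a run of 4 wild-type-only sites, regions 13 to 16, over 26.3 kb between regions 12 and 17, and this run too was singled out after its values were seen. Among all wild-type-only regions, 8.21% had a percentile as high. Region 3 (chr7:35842218-35842368) followed with a score of 12.4 at percentile 69.3; it lies 502 bp from the nearest double-knockout peak, that of region 2. Region 14 (chr7:35912266-35912416) scored 8.32 at percentile 52.1. Regions 8, 9 and 10, singled out in the same way, formed another wild-type-only run over 8.09 kb, with 11590 to 12830 bp to the nearest double-knockout peak, at percentiles of 45.9, 49.5 and 16.1. The other wild-type-only regions (5, 6, 15, 16, 22 and 26) ranked between percentiles 29.7 and 47.4.

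Beyond region 17, the Cebpa window was mixed. Region 23 (chr7:36000341-36000491) had the most negative difference, with scores of 9.42 (percentile 58.0) and 3.5 (percentile 8.34), a kept-rank difference of -37.7 points. Region 24 (chr7:36011337-36011487), the next site, had the most positive one, with scores of 3.29 (percentile 3.28) and 5.52 (percentile 32.5), a kept-rank difference of 24.4 points. The other kept regions (1, 18, 19, 20, 21 and 28) ranked between percentiles 27.5 and 73.2 in the wild type, and between 3.20 and 72.5 in the double knockout. Region 28 (chr7:36049869-36050019) crosses the edge of the window and has its centre inside. Both double-knockout-only regions were near the floor of their list. Region 27 (chr7:36039768-36039918) scored 3.61, and 81.8% of all double-knockout-only regions ranked as high or higher; region 4 (chr7:35865871-35866021) scored 3.4 at percentile 6.67. Only 133 bp separate region 4 from the wild-type-only region 5, and whether these mark 1 site was not tested.

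At Irf8, 11 of the 18 kept regions had a higher percentile in the double knockout, against 35.6% of all kept regions, and 13 of the 18 were higher by kept rank, against 53.1%. The window held the 3 strongest double-knockout-only regions of the loci. The strongest kept region was region 19 (chr8:123260101-123260251), with a score of 19.6 (percentile 83.2) in the wild type and 26.9 (percentile 86.0) in the double knockout. Region 6 (chr8:123192106-123192256) scored 19.2 (percentile 82.7) and 24 (percentile 83.9). Region 14 (chr8:123239261-123239411) scored 19.1 (percentile 82.6) and 17.7 (percentile 77.3), with centres 112 bp apart. Their kept-rank differences were 7.72, 5.96 and -1.46 points. The largest of these, that of region 19, was matched or passed by 28.1% of all kept regions, whatever their wild-type rank. Among kept regions of like wild-type rank it was less common. Around 72.5 among the kept regions in the wild type, the highest 10% in the double knockout began at 81.8. Around 77.5 they began at 85.0. Region 19 lay between these steps at 74.9 in the wild type and stood at 82.6 in the double knockout.

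The most positive difference at the 3 loci was that of Irf8 region 16 (chr8:123249280-123249430), 10.8 kb before region 19. It scored 6.35 (percentile 38.6) in the wild type and 13.2 (percentile 69.2) in the double knockout. The kept-rank difference of 40.0 points was matched or passed by 2.95% of all kept regions. Region 21 (chr8:123276066-123276216), 16.0 kb after region 19 and singled out after its values were seen, scored 4.82 (percentile 24.0) and 7.22 (percentile 45.5). The most negative difference in this window was that of region 11 (chr8:123221020-123221170), with scores of 12.2 (percentile 68.7) and 5.2 (percentile 29.6), a kept-rank difference of -33.1 points.

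The double-knockout-only regions of the Irf8 window with the highest scores were regions 15, 12 and 18. Region 15 (chr8:123240331-123240481) scored 16.8 at percentile 75.8, and 9.50% of all double-knockout-only regions ranked as high. It lies 919 bp from the nearest wild-type peak. Region 12 (chr8:123225754-123225904) scored 14 at percentile 71.0. Only 125 bp separate it from the wild-type-only region 13, which ranked at percentile 69.0 of its own list, and whether the pair marks 1 site was not tested. Region 18 (chr8:123252534-123252684) scored 10.8 at percentile 62.6, with 2340 bp to the nearest wild-type peak and 7.57 kb to region 19. The other double-knockout-only regions of the window, 4, 29 and 30, ranked between percentiles 0.752 and 29.6.

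Wild-type-only regions of the Irf8 window were mostly weak, as such regions were in the whole list. Their median percentile was 33.9, against 28.6 for all wild-type-only regions. The strongest was region 13 (chr8:123226030-123226180), with a score of 12.3. Region 5 (chr8:123188587-123188737) scored 8.65 at percentile 54.0, and region 23 (chr8:123290646-123290796) scored 6.68 at percentile 41.3. Regions 22 to 24, singled out after their values were seen, formed a wild-type-only run over 29.6 kb (chr8:123287215-123316856) on the far side of region 19, at percentiles of 33.9, 41.3 and 33.9. From region 20 to region 28, also chosen after its values were seen, 5 regions were kept and 4 were wild-type-only over 61.5 kb, against 39.1% wild-type-only in the whole list. This stretch ends just before the double-knockout-only regions 29 and 30 and therefore holds none by choice. The other wild-type-only regions (9, 10, 17 and 20) ranked between percentiles 17.5 and 36.8. Kept regions of the window not named above (1, 2, 3, 7, 8, 25 to 28 and 31 to 33) ranked from 6.84 to 68.0 in the wild type and from 6.67 to 75.8 in the double knockout. Before region 19 the same window held 4 double-knockout-only regions and after it 2. Together these were 25% of the window's 24 double-knockout peaks, against 25.3% of the whole list. The split at region 19 was made after the values were seen, and nothing is read from it.

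**Figure D3:**
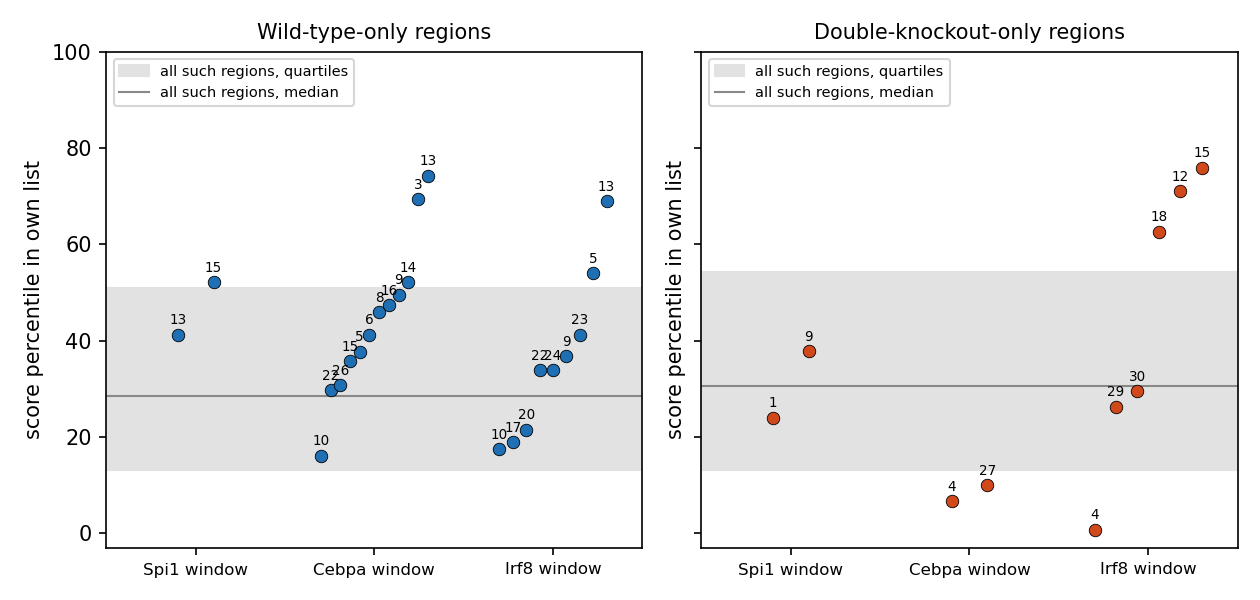
Score percentile within the own list (y axis) of each wild-type-only region (left) and double-knockout-only region (right) of the 3 windows, with region numbers. The grey band and line are the quartiles and the median of all such regions in the list; Cebpa regions 3 and 13 and Irf8 region 13 lie highest on the left, and Irf8 regions 12, 15 and 18 lie above the band on the right.

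Over the whole set, regions called in 1 list were of moderate rank. The 23 wild-type-only regions had a median percentile of 41.3 (range 16.1 to 74.2), and all wild-type-only regions of the genome a median of 28.6. The 10 double-knockout-only regions had a median of 27.9 (range 0.752 to 75.8), against 30.6 for all of them. In the upper 50% of their list were 6 of the 23, or 26.1% against 26.3% of all such regions, and 3 of the 10, against 29.0%. These shares are near the background. None of the 33 regions was among the strongest 10% of its list. Every site of that strength at the 3 loci was thus called in both genotypes. Over the whole lists, regions called in 1 list reached percentiles 99.99 (wild type) and 99.97 (double knockout). Their share among the strongest 10% was not computed, so this count is not read as a trait of the loci. Of the 23, 20 had no double-knockout peak within 500 bp, or 30.3% of the wild-type peaks of the windows against 32.7% of all. For the 10 double-knockout-only regions these figures were 7, 13.2% and 16.4%.

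Median differences of the kept regions differed in sign between the loci, but none was set apart from the whole list. The median percentile difference was -16.3 points at Spi1 (11 regions), -11.4 points at Cebpa (14 regions) and 1.61 points at Irf8 (18 regions), against -2.67 over all kept regions. Exact 95% intervals of these medians, taken from the ordered values, ran from -33.9 to -0.0462 points at Spi1, from -36.3 to -0.156 at Cebpa and from -5.82 to 7.87 at Irf8. All 3 include -2.67, and that of Irf8 includes 0. By kept rank the medians were -9.60 (-27.3 to 2.13), -8.12 (-33.6 to 6.17) and 7.89 (-1.46 to 12.4) points, against 0.55, and these intervals include both 0.55 and 0. The intervals treat the regions of a window as independent and cover no spread between samples. With the wild-type list limited to its strongest peaks so that both lists were equally long, they were -4.08, -10.1 and 8.39 points, against 0.77. Lower in the double knockout by kept rank were 7 of 11 regions at Spi1, 9 of 14 at Cebpa and 5 of 18 at Irf8, and 46.9% of all kept regions. The groups of values overlap widely: differences by kept rank ran from -39.6 to 14.7 points at Spi1, from -37.7 to 24.4 at Cebpa and from -33.1 to 40.0 at Irf8. No test of the difference between the loci was made, since regions of 1 library are not replicates.

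Differences of at least 20 points were counted beside the whole list. By percentile within the list, 5 kept regions at Spi1, 5 at Cebpa and 2 at Irf8 were that much lower, or 12 of 43, against 17.8% of all kept regions. By kept rank these were 2, 5 and 1, or 8 of 43, against 12.0%. At least 20 points higher were 0, 1 and 2 regions on both scales, against 7.40% of all kept regions within the list and 11.3% by kept rank. The 5 lower Cebpa regions by kept rank are 7, 17, 19, 21 and 23.

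**Figure D4:**
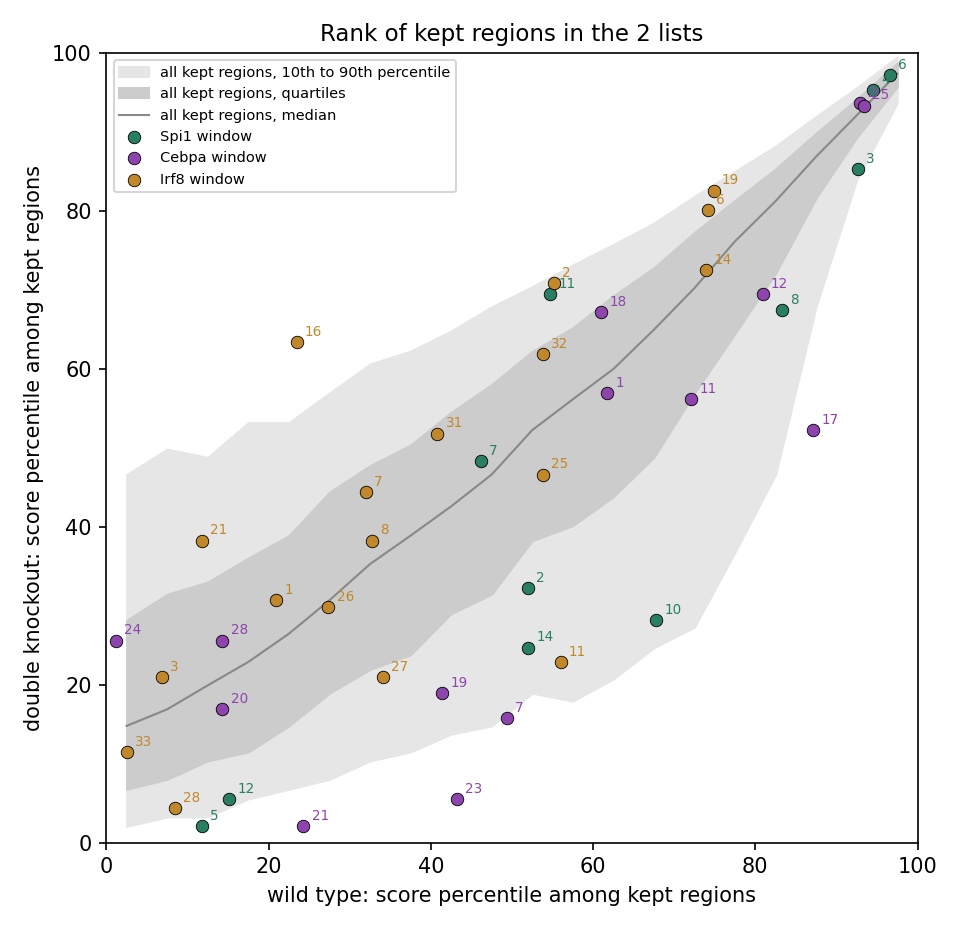
Score percentile among the kept regions in the wild type (x axis) and the double knockout (y axis) for the 43 kept regions of the 3 windows, with region numbers. Grey bands and line give the quartiles, the 10th to 90th percentiles and the median of all 52206 kept regions in steps of 5 points of the wild-type percentile; Spi1 region 5 and Cebpa regions 17, 21 and 23 lie below the outer band, Irf8 region 16 lies above it and Irf8 region 19 at its upper edge.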

How the data were processed

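The data are ATAC-seq peak lists, 1 for each library, and the labels' genotype gave the groups. The submitters' processing notes list the build mm9 and the tools HOMER, Bowtie and bcl2fastq 1.8.4, with no settings. The sources used here do not say how peaks were called, whether read ends were shifted or how duplicate reads were treated, and each could change which weak sites are listed. Each deposited file gives 1 peak per line with the authors' score, whose unit is not stated. Peaks are 151 bp wide except 1 per list, so a broad site can be marked at different places. The read depth is unknown. The wild-type list holds 10 peaks on chromosome Y and the double-knockout list 0. Whether the libraries differ in the sex of the animals was not tested, and such a difference could not be told apart from genotype. All 3 loci are autosomal, which does not settle this.

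Overlaps were computed on the whole lists and percentiles from mean ranks, with Python 3.11.15, NumPy 2.4.6, pandas 2.3.3 and SciPy 1.17.1. The overlap step was tested on a thinned copy of the wild-type list, with peaks shifted by less than the usual peak width. That test does not cover peaks displaced further. Regions named one by one are, per window, the 3 kept ones with the highest wild-type percentile, those with the most positive and most negative percentile difference, and the 3 highest-scoring wild-type-only and double-knockout-only ones; other regions, and all runs and stretches, were singled out after their values were seen. The members and rules were chosen with earlier results of these data known. Alternatives covered the overlap rule, score threshold, list length, window edges and percentile scale. Counts at other myeloid genes and motifs in peaks were not run, as they need mm9 annotation or sequence.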

Additional observations from a re-analysis of the deposited data

How the results depend on the processing

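No paired analysis was possible because each genotype had a single library; leaving out a replicate was not possible either. Counts of the 3 classes stayed within 1.5 times of their values when peak centres within 200 bp or 50% of both peaks were required, and at equal list lengths. Joining peaks across gaps of up to 500 bp gave a double-knockout-only count of 1 at Spi1 and 1 at Cebpa. In the upper 50% of both lists the counts (kept, wild-type-only, double-knockout-only) were 6, 4 and 0 at Spi1, 7, 6 and 0 at Cebpa, 7, 3 and 5 at Irf8, and 20, 13 and 5 in all. With each upper 50% set against the whole other list, they were 9, 1 and 0 at Spi1, 10, 3 and 0 at Cebpa, 8, 2 and 3 at Irf8, and 27, 6 and 3 in all; fewer peaks enter both settings by construction. Windows 50 kb wider held 4 double-knockout-only regions at Spi1, 4 at Cebpa and 16 in all. In windows 25 kb narrower Spi1 had 1 wild-type-only and 1 double-knockout-only region, and Cebpa 1 double-knockout-only region.

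The median percentile difference of the kept regions was negative at Spi1 and Cebpa and positive at Irf8 on each scale tried, but its 95% interval included the value over all kept regions at each locus and setting, and at Irf8 also 0 (-5.82 to 7.87 in the main analysis, against -2.67 over all). At equal list lengths it was -4.08, -10.1 and 8.39 points, and by kept rank it was -9.60, -8.12 and 7.89. Over the 3 windows together it turned from -5.29 to 0.578 points by kept rank, where list length no longer enters. Regions at least 20 points lower became 2 at Spi1 and 1 at Irf8 both at equal list lengths and by kept rank. The cause of the remaining changes was not tested. With depth unknown, whether a weak site was closed or only missed in 1 list was not tested.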
